A study of Homo sapiens with 6 samples.

Results

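NRG1, the EGF-type ligands HBEGF, AREG, EREG and TGFA, the receptors EGFR, ERBB2 and ERBB3, and the receptor inhibitor ERRFI1 were examined as 1 signalling unit in AB 8/13 podocytes. These 9 genes are among the 20745 genes of the table, and each of them has 1 row. They were chosen by gene symbol, with results of the authors' comparison of levamisole with vehicle known. That comparison is not used here, and no value of it supports a statement made here.

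AB 8/13 is a human podocyte line, conditionally immortalized so that it divides at a permissive temperature and differentiates at a warmer, restrictive one. RNA was sequenced from 3 vehicle cultures and 3 cultures given 1 µM levamisole for 24 h, with 3 different passages of this 1 line in each group. The sample labels place both groups in medium free of serum, while the methods name complete medium for the vehicle cultures, and the difference was not resolved. Library preparation followed a modified CEL-seq method, which reads transcripts near their poly(A) tail. The value used for every gene is the authors' base mean, the normalized count averaged over all libraries of their DESeq2 fit, so vehicle and levamisole are combined in it. It has no SD and no n of its own, and no value per culture was analysed here. The effect of levamisole on the 9 genes was therefore not analysed, and neither the depth per library nor the spread between cultures is known.

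EGF-type ligands are made as membrane-anchored precursors that metalloproteases cut at the cell surface. The released ligand binds an ERBB receptor, receptors pair, and the pair phosphorylates its own tails, which recruit adaptors of the RAS-MAPK and PI3K pathways. TGFA and AREG bind EGFR, HBEGF and EREG bind EGFR and ERBB4, and neuregulins such as NRG1 bind ERBB3 and ERBB4. ERBB2 has no known ligand of its own and acts as a partner, while ERBB3 has a nearly inactive kinase and signals through its partner. ERRFI1, also known as MIG6, binds active EGFR, blocks its kinase and is itself induced by the pathway. In the kidney, EGFR signalling of podocytes has been studied in glomerular injury, where HBEGF is one of the ligands described.

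All 9 genes had a base mean above 5, compared with 64.3% of all genes and 81.9% of the 14455 protein coding genes of the table. They spanned a wide range. EGFR, NRG1, TGFA and HBEGF stood close together at the top, ERRFI1 was lower, AREG and ERBB2 were lower again, and EREG and ERBB3 were the lowest of the 9. The median of the 9 base means was 143, against 21.8 over all genes and 66.2 over protein coding genes. The 9 were chosen with earlier results known, and family genes under 5, such as EGF and ERBB4, are not among them. These values therefore describe the 9 genes and not the family. Over all listed ligands with a row the median was 20.7, and over the 4 receptors it was 39.2. In the distribution of base means over all genes, 5 of the 9 lay above the upper quartile of 131, and 7 lay above the median.

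**Figure D1:**
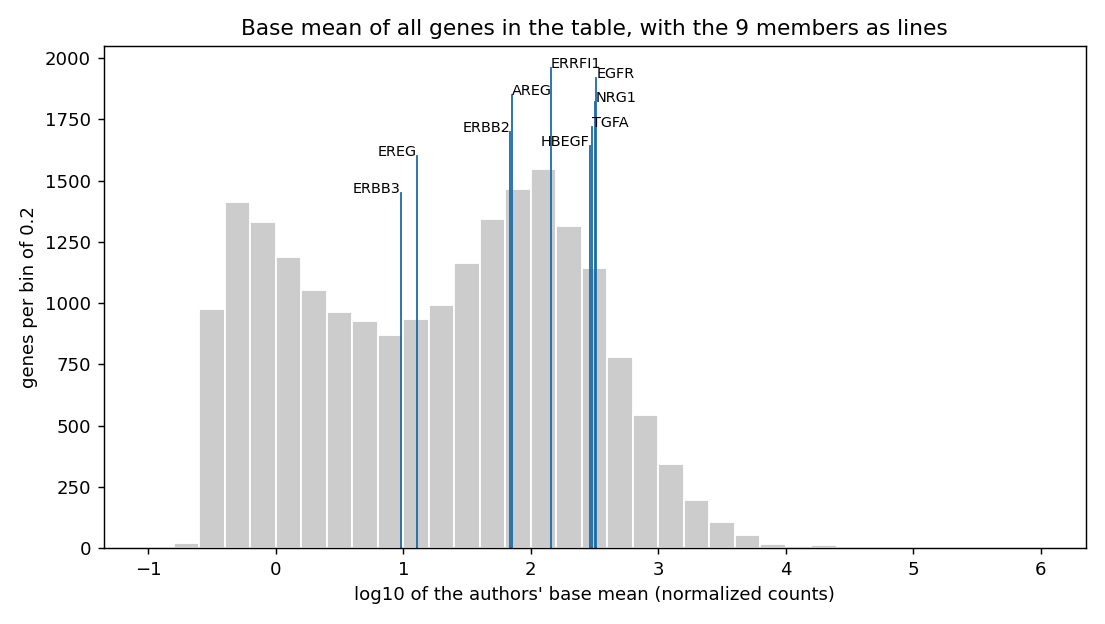
Number of genes (y axis) per bin of 0.2 in the log10 of the authors' base mean (x axis, normalized counts), for all 20745 genes in grey, with each of the 9 genes as a blue line whose height has no meaning. EGFR, NRG1, TGFA and HBEGF share the right flank of the distribution, and EREG and ERBB3 lie in the dip between its 2 peaks.

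Among the ligands, NRG1 had the highest base mean, 321, which placed it at 2570 from the top of the table. NRG1 encodes neuregulin 1, a ligand of ERBB3 and ERBB4 with many isoforms. The gene (ENSG00000157168) lies on chromosome 8 of GRCh38 from 31639222 to 32855666, on the plus strand, and has 35 annotated transcripts. TGFA, which encodes transforming growth factor alpha, had a base mean of 304. TGFA (ENSG00000163235) lies on the minus strand of chromosome 2, from 70447284 to 70554193. HBEGF, the heparin-binding ligand that also serves as the diphtheria toxin receptor, had a base mean of 291. HBEGF (ENSG00000113070) lies on the minus strand of chromosome 5, from 140332843 to 140346603. The base means of these 3 ligands lay within a factor of 1.10 of each other, and with no spread known their order cannot be read as a difference.

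AREG, which encodes amphiregulin, had a base mean of 71.0. The base mean of HBEGF was 4.09 times that of AREG, and its level per kb of exonic length 2.25 times. EREG, which encodes epiregulin, was the lowest of the 5 ligands with a base mean of 12.8, so that of AREG was 5.54 times higher. Both genes lie on the plus strand of chromosome 4, AREG (ENSG00000109321) from 74445136 to 74455005 and EREG (ENSG00000124882) from 74365145 to 74388749.

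The other ligands of the family had lower values than the first 4. BTC (betacellulin) had a base mean of 20.7, which is above that of EREG. NRG4, EGF and NRG2 fell under 5, with base means of 4.88, 3.70 and 1.38. No level of EPGN or NRG3 was analysed here. Of the summed base mean of the 9 ligands with a row, NRG1 held 31.2%, TGFA 29.5%, HBEGF 28.2% and AREG 6.90%. EGF itself, the ligand that gives the family its name, held 0.359%. Among the neuregulins with a row, the base mean of NRG1 was 65.8 times that of NRG4 and its level per kb 15.4 times.

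Of the receptors, EGFR was the highest, with a base mean of 327 and place 2534 in the table. EGFR (ENSG00000146648) lies on the plus strand of chromosome 7, from 55019017 to 55211628. ERBB2, the receptor without a ligand of its own, had a base mean of 68.8, and EGFR had 4.75 times that value. ERBB2 (ENSG00000141736) lies on the plus strand of chromosome 17, from 39687914 to 39730426. ERBB3, the neuregulin receptor with the weak kinase, had a base mean of 9.54. ERBB3 (ENSG00000065361) lies on the plus strand of chromosome 12, from 56076799 to 56103505.

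ERBB4, the other neuregulin receptor, had a base mean of 1.71, which is under 5. EGFR held 80.3% of the summed base mean of the 4 receptors, ERBB2 16.9%, ERBB3 2.34% and ERBB4 0.421%. The base mean of NRG1 was 33.6 times that of its receptor ERBB3. The base mean of EGFR was 1.12 times that of its ligand HBEGF, a ratio that turned to 0.211 per kb of exonic length.

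ERRFI1, the feedback inhibitor of EGFR, had a base mean of 143, so that of EGFR was 2.29 times higher. ERRFI1 (ENSG00000116285) lies on the minus strand of chromosome 1, from 8004404 to 8026309. Its base mean was above that of ERBB2, ERBB3, AREG and EREG.

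The genes differ in length, from 1642 exonic bases for AREG to 21372 for NRG1, so levels were also compared per kb of exonic length. Reads at the poly(A) end count a transcript once whatever its length, so by design the base mean is the scale nearer to the number of transcripts. Neither scale was tested against a measured number of transcripts. Division by length lowers long genes such as NRG1 relative to short ones, and the values per kb show only what this division does. Per kb, HBEGF was the highest of the 9 with a base mean of 97.2 per kb, followed by TGFA with 61.7, AREG with 43.3 and ERRFI1 with 34.2. EGFR came next with 20.5 per kb. NRG1, at place 2 by base mean, was at place 6 per kb with 15.0. ERBB2 (6.67 per kb), EREG (2.24 per kb) and ERBB3 (0.814 per kb) kept the last 3 places.

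The division by length changed the order of the ligands. Per kb, HBEGF held 42.5% of the summed ligand level, TGFA 27.0%, AREG 18.9% and NRG1 6.55%. The ratio of NRG1 to HBEGF turned from 1.10 by base mean to 0.154 per kb of exonic length and 0.208 per kb of the longest transcript. The ratio of EGFR to ERRFI1 turned from 2.29 to 0.600 per kb. By contrast, the order of the receptors was the same on both scales, EGFR holding 72.9% of their sum per kb, and the ratio of EGFR to ERBB2 was 3.08. The excess of NRG1 over ERBB3 was also found per kb, at 18.4 times, and AREG stood further above EREG, at 19.3 times.

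**Figure D2:**
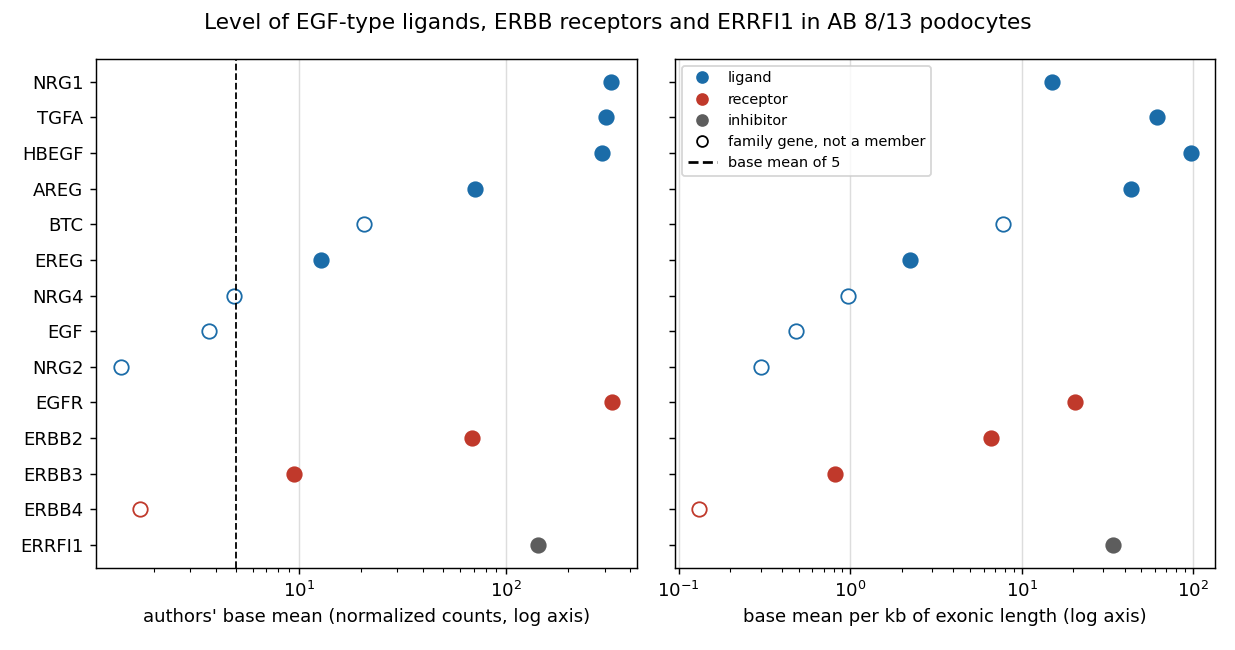
The authors' base mean (left, normalized counts, log axis) and the base mean per kb of exonic length (right, log axis) of 9 ligands (blue), 4 receptors (red) and ERRFI1 (grey), 1 point per gene with no error bar because the base mean is 1 pooled value. Filled points are the 9 genes described and open points other genes of the family. NRG1 moves from the top of the ligands on the left to below HBEGF, TGFA and AREG on the right, and the order of the receptors is the same in both panels.

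AREG and EREG are neighbours, 56.4 kb apart with no protein coding gene between them in GENCODE 44. EPGN lies 48.4 kb before EREG, and BTC 290 kb beyond AREG. In this run of ligand genes the base mean was 12.8 for EREG, 71.0 for AREG and 20.7 for BTC. On chromosome 5, HBEGF had a base mean of 291 and NRG2, 290 kb away with 4 protein coding genes between them, one of 1.38.

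The promoters of AREG and EREG are shown because these adjoining genes point the same way and had base means 5.54 times apart. Each window runs from 250 bases before the RefSeq start to 50 bases after it (GRCh38.p14), 5′ to 3′ on the plus strand, at chr4:74444886-74445185 for AREG and chr4:74364895-74365194 for EREG. Capitals mark matches on either strand to the TATA box letters TATAAA and to TGACGTCA, the letters of the cAMP response element. TGANTCA, with any base at N, includes the letters that AP-1 factors bind. It was searched as well and had no match in either window.
AREG: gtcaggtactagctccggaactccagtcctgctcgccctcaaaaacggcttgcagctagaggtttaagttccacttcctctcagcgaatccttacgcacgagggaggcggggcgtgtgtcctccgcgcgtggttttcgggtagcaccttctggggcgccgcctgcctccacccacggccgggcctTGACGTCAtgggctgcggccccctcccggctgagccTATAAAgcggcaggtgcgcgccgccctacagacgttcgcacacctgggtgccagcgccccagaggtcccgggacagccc
EREG: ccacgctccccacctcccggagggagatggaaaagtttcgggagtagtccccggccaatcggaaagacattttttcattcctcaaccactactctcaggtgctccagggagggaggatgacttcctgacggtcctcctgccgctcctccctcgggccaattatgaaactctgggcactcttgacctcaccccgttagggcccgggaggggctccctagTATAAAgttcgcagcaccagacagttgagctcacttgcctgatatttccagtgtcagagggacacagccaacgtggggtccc

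Both windows hold TATAAA, which begins 29 bases before the start in AREG and 32 bases before it in EREG. Of all 35116 promoter windows in the RefSeq table, 11.5% hold these letters. TGACGTCA was found in AREG, 65 bases before the start, and is in 1.85% of all windows. TGANTCA is in 7.71% of them. CCAAT, which was also searched, had 2 matches in the EREG window, 196 and 95 bases before the start. It had 0 in the AREG window and is in 34.6% of all windows. G and C made up 66.3% of the AREG window, with 27 CG pairs, and 57.7% of the EREG window, with 12 CG pairs, against medians of 58.7% and 14 over all windows.

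The RefSeq table holds windows for 7 of the 9 genes, leaving NRG1 and ERBB3 without one. The windows at the first start of HBEGF, TGFA, EGFR and ERRFI1 were richer in G and C, from 74.7% to 75.3%, and none of these 4 windows holds TATAAA. A further start of EGFR, inside the gene, has a window with 42.0% G and C, 2 matches to TATAAA and 2 to TGANTCA. The letters that SP1 binds, GGGCGG, are in 5 of the 9 windows of these 7 genes (1 each for HBEGF, AREG, TGFA, EGFR and ERRFI1) and in 45.0% of all windows. A match of letters is a description of the window and shows no binding.

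The other genes of the pathway were described by lists, each by its count above a base mean of 5 and its median. Of the 11 listed ligands 9 had a row and 6 of these were above 5, with a median of 20.7, and of the 4 receptors 3 were above 5, with a median of 39.2. All 7 listed genes of ligand processing were above 5, with a median base mean of 465. The highest were RHBDF1 (1032), an inactive rhomboid that helps ADAM17 to mature, and the metalloprotease ADAM9 (873). ADAM17, the main sheddase of TGFA, AREG and HBEGF, had a base mean of 159, and ADAM10 had one of 465.

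All 10 listed genes of receptor inhibition and turnover were above 5, with a median of 112. The highest were SH3KBP1 (1189), an adaptor of receptor endocytosis, and RNF41 (291), a ubiquitin ligase that acts on ERBB3. ERRFI1 was the fourth of these 10 by base mean, below the ubiquitin ligase CBL (174) and above CBLB (123), and LRIG1, a transmembrane inhibitor of ERBB receptors, was the lowest (8.40). All 17 listed adaptors and effectors were above 5, with a median of 190, the highest being STAT3 (2166). Of these 5 lists, the ligands and the receptors were the ones with genes under 5. Their shares at or above 5 were 66.7% and 75%, beside 64.3% of all genes and 81.9% of protein coding genes. The lists are small and were chosen with earlier results known, so this is a description of the listed genes only.

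**Figure D3:**
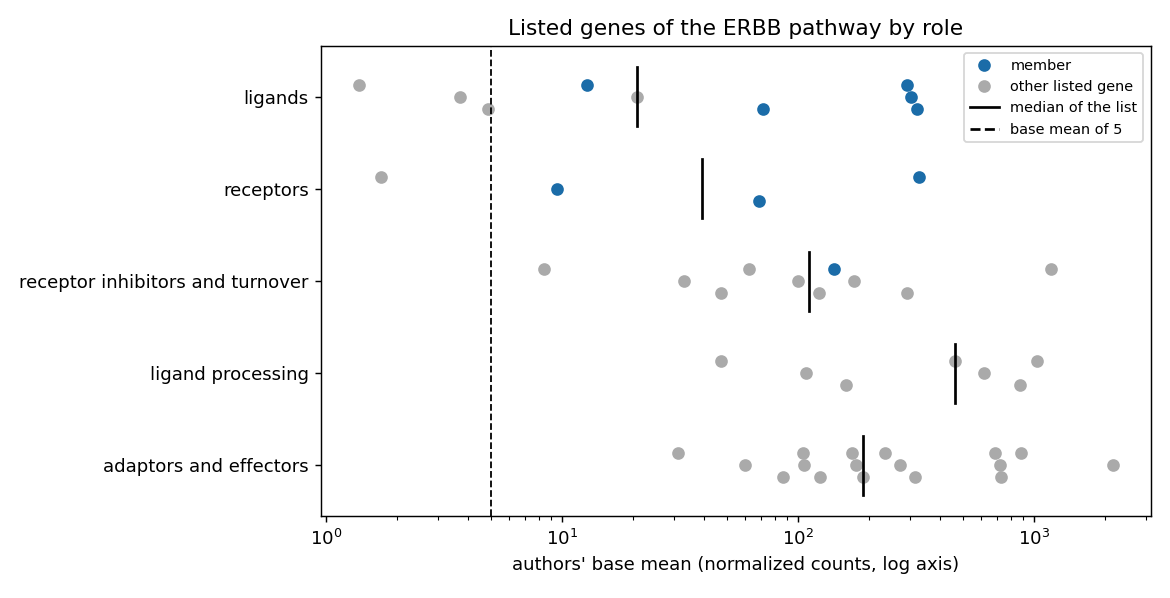
The authors' base mean (x axis, normalized counts, log axis) of the listed genes of the ERBB pathway by role (y axis), 1 point per gene, with the 9 genes described in blue, other listed genes in grey, the median of each list as a black bar and a base mean of 5 as a dashed line. Points under the dashed line's value occur among ligands (NRG4, EGF and NRG2) and receptors (ERBB4).

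The podocyte label was compared with markers in the same table. Of 12 podocyte markers, 10 had a row and 8 were above 5. The highest were ACTN4 (14320) and CD2AP (929), which many other cell types express, whereas WT1 (6.21), PODXL (15.3) and SYNPO (22.8) were low, PTPRO (0.333) was under 5, and NPHS1 was not analysed here. None of the 3 endothelial and none of the 3 leukocyte markers with a row reached 5, and all were at 2.40 or less. Markers of other cells were high for single genes, COL1A1 (2733), AQP1 (243) and EPCAM (76.3). Rows were present for 2 of 5 mesangial and fibroblast, 2 of 6 tubular and 3 of 4 keratinocyte and other epithelial markers. Apart from COL1A1, AQP1 and EPCAM, those with a row (PDGFRB, CUBN, CDH1 and KRT5) were at 4.14 or less. The part of other cells in the levels of the ligands and receptors was not tested. The last 500 exonic bases of the longest annotated transcript overlapped exons of a further gene of the same strand in 0 of the 9 genes. Where the reads fell was not examined, and the ends of other transcripts were not part of this count.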

How the data were processed

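Bulk RNA was sequenced from 3 vehicle and 3 levamisole cultures. Per the labels and the methods, the authors trimmed reads with Trim Galore 0.4.5, mapped them to GRCh38 with STAR 2.7.5a, counted them per gene with HTSeq 0.11.0 and fitted DESeq2 1.22.0. Another section of the methods gives mapping with BWA MEM to a human reference transcriptome, counting with MapAndGo and RPM normalization. How that account relates to the steps above was not resolved. The base mean was deposited by the authors as a signal in normalized counts, averaged over all libraries of their fit. The methods name a minimum of 5 reads, but 7409 genes have a base mean under 5. The other 5 numeric columns hold the authors' own comparison (log2 fold change, its standard error, statistic, p-value and adjusted p-value) and were not used. With no values per library, the planned edgeR test could not be run, no test was made, and depth is unknown.

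Positions and lengths came from GENCODE 44 (GRCh38), which matched 20599 gene identifiers and is later than the authors' annotation. Exonic length is the union of all annotated exons. Promoters came from RefSeq (GRCh38.p14). Scripts ran in Python 3.11.15 with pandas 2.3.3, NumPy 2.4.6 and matplotlib 3.10.9. The members and lists were chosen with earlier results of these data known. Named were the 9 genes, the other ligands and receptors of the family, and in each list the 2 highest genes and those under 5, except that some listed genes are not reported here, while ADAM10, ADAM17, CBL, CBLB, LRIG1 and the cell type markers named were picked after their values were seen. Alternatives were levels per kb, other sets of genes for ranks and other minimums.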

Additional observations from a re-analysis of the deposited data

How the results depend on the processing

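No paired analysis was possible because the table used holds no values per culture, and for the same reason no replicate could be left out. By base mean the order of the 9 genes began with EGFR, NRG1, TGFA, HBEGF, ERRFI1 and AREG. Per kb of exonic length and per kb of the longest transcript alike, HBEGF was at place 1, TGFA at 2, AREG at 3, ERRFI1 at 4, EGFR at 5 and NRG1 at 6, and places 7 to 9 were the same on all 3 scales. The highest ligand held 42.5% of the ligand sum per kb (HBEGF) in place of 31.2% (NRG1), and EGFR held 72.9% of the receptor sum in place of 80.3%.

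The percentile of each gene among genes at or above a base mean of 5 was 81.0 for EGFR, 80.7 for NRG1, 79.6 for TGFA, 78.8 for HBEGF, 63.3 for ERRFI1, 46.2 for AREG, 45.3 for ERBB2, 13.8 for EREG and 9.23 for ERBB3. Among protein coding genes it was 82.7, 82.4, 81.4, 80.7, 66.7, 51.5, 50.8, 25.7 and 22.9 in the same order. With a base mean minimum of 1, 10 or 50 in place of 5, 9, 8 and 7 of the 9 genes were above it. Over all genes the shares were 82.0%, 57.8% and 39.9%, and over protein coding genes 92.5%, 76.7% and 55.5%. At a minimum of 50 the count of podocyte markers was 3 in place of 8, and at a minimum of 1 there were 2 mesangial and fibroblast markers, 2 tubular markers and 2 leukocyte markers in place of 1, 1 and 0. All other list counts were within 1.5 times. The unknown depth and spread limit every order given.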
